A study of Mus musculus with 36 samples.

Results

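Nucleosomes carrying the histone variant H2A.Z were compared at ZT06 and ZT18 in wild-type mouse liver, position by position, around the sites bound by CLOCK:BMAL1 (named CLK:BMAL1 in the labels). ZT is zeitgeber time, the hours since lights on, so ZT06 is the middle of the light phase and ZT18 the middle of the dark phase of a cycle of 12 h light and 12 h dark. With earlier results of these data known, the libraries were taken by their labels: wild type (WT), series 11, 12, 25 or 26, at either time. This gave 4 libraries per time, 8 of the 36 samples in the labels and 8 of the 30 libraries with profiles. They contribute 32 of the 120 profiles, 1 per library and peak set.

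All 8 libraries came from livers of adult C57BL/6 mice without any genetic change, and none had another treatment than the light cycle. Formaldehyde-fixed nuclei were digested with micrococcal nuclease, which cuts the DNA between nucleosomes, and H2A.Z nucleosomes were pulled down with an anti-H2A.Z antibody before sequencing of the mononucleosome fraction. The study also holds the other 4 times of day and Bmal1-/- livers (BM), which lack BMAL1. Whole liver is a mixture of cell types, and the values used here hold no gene-level signal against which the tissue could be checked. No profile of total nucleosomes was used either, so more nucleosomes and more H2A.Z per nucleosome cannot be told apart.

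H2A.Z replaces the canonical histone H2A in some nucleosomes and is known to flank active promoters and enhancers, where it marks nucleosomes that are easily exchanged. CLOCK:BMAL1 is the activator of the mammalian circadian clock. It binds E-box elements, drives its own repressors, the Period and Cryptochrome genes, and in mouse liver is known to bind most strongly around the middle of the day. A site occupied by a transcription factor is typically short of nucleosomes, with a well placed nucleosome on each side.

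Each profile is the mean H2A.Z signal over a set of CLK:BMAL1 peaks in a window of 3 kb, given in steps of about 10 bp from -1490 to 1490 bp with the peak centre in the middle. Distances below are in bp from that centre, negative to the left. The peaks carry no strand, so left and right follow the mm9 genome coordinate and not the direction of a gene. The sets are all peaks (3216 by the label of the profile), peaks at transcription start sites (TSS, 583), in gene bodies (1623) and in intergenic DNA more than 10 kb from a gene (717). All peaks hold the other 3 sets, so their values are not independent of them. In the list of peaks, 347 (10.8%) have another peak centre within 500 bp and 630 (19.6%) within 3000 bp.

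Overall level varied from series to series. The window mean over all peaks ran from 15.0 to 22.4 at ZT06 and from 15.0 to 20.3 at ZT18, in the authors' signal units, with series 25 the highest at both times. The log2 difference, ZT06 minus ZT18 throughout, was 0.12 (exact permutation p = 0.457). The read depth behind these values is unknown. No pair among the profiles was identical. The labels give series 11 and 12 a single antibody lot. In series 25 and 26 each library has a lot number of its own, and these numbers rise from library to library, so whether they are real lots is unsure and they were not used. Source names part series 11 and 12 from series 25 and 26, and values within each pair of series are given for the shoulder zone of each set.

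The edges of the windows read nearly the same at both times. The flank, averaged from the 25 positions nearest each end of the window, stood over all peaks at 9.32, 9.68, 12.0 and 11.9 in series 11, 12, 25 and 26 at ZT06. At ZT18 the same series read 9.70, 10.1, 11.7 and 10.7. The groups overlapped, and ZT06 was higher in series 25 and 26 and lower in series 11 and 12. The log2 difference was 0.01 (exact permutation p = 0.886). At TSS, gene body and intergenic peaks it was 0.03, 0.00 and 0.01.

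The middle of the dip also read nearly the same. The centre, the mean within 30 bp of the peak centre, was 21.1 ± 4.86 (SD, n = 4) at ZT06 and 20.7 ± 3.18 (SD, n = 4) at ZT18 over all peaks. The log2 difference was 0.01 on the deposited scale. After division by the profile's own flank, which removes any factor that scales a whole library, the centre read 1.71, 1.87, 2.18 and 2.04 times the flank at ZT06 in series 11, 12, 25 and 26. At ZT18 it read 1.79, 1.87, 2.10 and 2.04. ZT06 was the higher in 2 of 4 series, and the log2 difference was -0.00 (SE 0.09, exact permutation p = 0.971). A library left out at a time gave values from -0.06 to 0.06, so no direction can be given.

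The shoulders, the H2A.Z nucleosomes next to the bound site, read higher at ZT06 in every series. Their mean from 150 to 230 bp on both sides was 26.1, 29.5, 43.4 and 39.2 at ZT06 in series 11, 12, 25 and 26, in signal units. At ZT18 it was 24.9, 25.1, 37.1 and 29.9 in the same order. Each ZT06 library exceeded the ZT18 library of its series, but the groups overlapped, because series 25 and 26 at ZT18 lay above series 11 and 12 at ZT06. The log2 difference was 0.23 (SE 0.22, exact permutation p = 0.257), within the spread between libraries, and ran from 0.11 (without series 25 at ZT06) to 0.36 with 1 library left out. Among 72 zone measures on the deposited scale, none passed an adjusted p of 0.05 by the exact permutation test, and 0 had an unadjusted p below 0.05.

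Division by the flank narrowed the spread without parting the groups. Over all peaks the shoulders read 2.80, 3.04, 3.62 and 3.31 times the flank at ZT06 and 2.56, 2.47, 3.17 and 2.79 at ZT18. The means were 3.19 ± 0.352 (SD, n = 4) and 2.75 ± 0.312 (SD, n = 4), a 1.16-fold difference. On the log2 scale it was 0.22 (SE 0.11, exact permutation p = 0.114), higher in 4 of 4 series. It was 0.21 within series 11 and 12 and 0.22 within series 25 and 26.

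**Figure D1:**
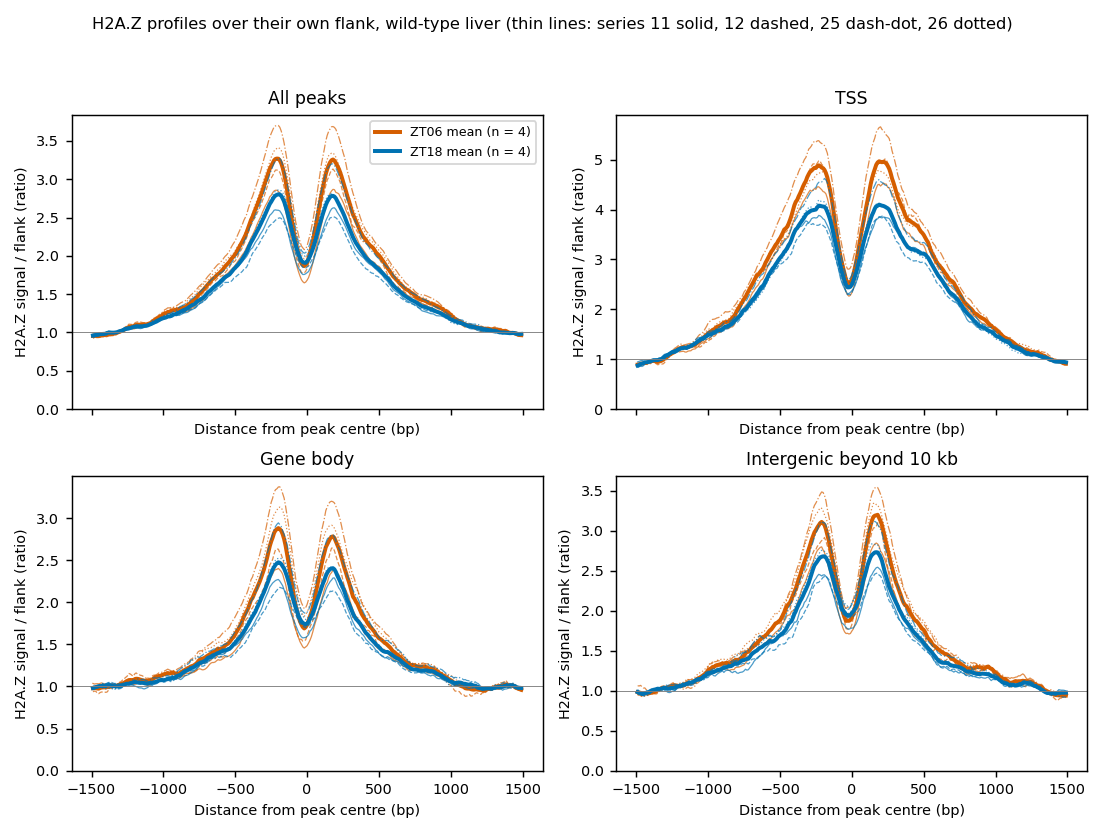
H2A.Z signal divided by the profile's own flank (vertical axis, ratio) against distance from the peak centre (horizontal axis, bp) in the 4 peak sets; thick lines are the means of 4 libraries at ZT06 (orange) and ZT18 (blue), thin lines the libraries. Over all peaks the lines meet in the dip, at centre values of 1.95 times the flank for both means, and part at the shoulders, at 3.19 for ZT06 and 2.75 for ZT18.

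The plot of the profiles over their flank shows where the curves part. The shoulder maxima stood at -210 and 180 bp in the mean ZT06 profile over all peaks, with 35.4 and 35.2 signal units. In the mean ZT18 profile they stood at -200 and 180 bp, with 29.8 and 29.6. At TSS peaks both times had their maxima at -230 and 190 bp, with 57.8 and 58.9 at ZT06 and 47.0 and 47.3 at ZT18. Gene body peaks had the lowest shoulders of the 4 sets, 26.8 and 25.8 at ZT06 against 22.8 and 22.1 at ZT18, at -200 and 180 bp both times. Intergenic peaks reached 37.5 and 38.5 at ZT06 and 31.8 and 32.4 at ZT18.

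Beyond the shoulders the averaged profiles fell without a separate peak for the next nucleosome. No further maximum lay between the shoulders and 600 bp in a mean profile of either time, except a small one at -570 bp in the ZT18 profile of intergenic peaks. At TSS peaks the fall on the right slowed near 420 bp at ZT06 (to -1.13 signal units per 60 bp) and near 430 bp at ZT18 (to -0.744). At gene body peaks it slowed near 530 bp (to -0.760) and 550 bp (to -0.386). The zones past the shoulder were therefore set by distance: the linker from 260 to 310 bp, the next nucleosome from 330 to 430 bp and a distal zone from 600 to 1000 bp.

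Past the shoulders the differences were smaller the farther out the zone lay. Over all peaks the log2 difference over the flank was 0.21 (SE 0.10) in the linker zone and 0.17 (SE 0.08) in the next-nucleosome zone, each with an exact permutation p of 0.0857. In the distal zone it was 0.08 (SE 0.05, exact permutation p = 0.171). All 3 zones were higher at ZT06 in 4 of 4 series. On the flanks of the dip, from 50 to 120 bp, the difference was 0.05 on the left and 0.15 on the right, beside a lowest point of the dip that itself lay left of the peak centre, at -21.3 bp in the ZT06 libraries and -16.7 bp in the ZT18 libraries on average.

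TSS peaks, the promoter sites of the series, were the set in which zones separated without overlap. The linker zone read 4.32, 4.70, 5.20 and 4.47 times the flank at ZT06 in series 11, 12, 25 and 26, and 3.74, 3.63, 4.29 and 3.94 at ZT18. The lowest ZT06 library lay just above the highest ZT18 library, series 25. The next-nucleosome zone read 3.74, 4.09, 4.44 and 3.88 at ZT06 and 3.44, 3.23, 3.72 and 3.49 at ZT18, again with the groups apart. The log2 differences were 0.26 (linker) and 0.22 (next nucleosome), each with an exact permutation p of 0.0286, the smallest that 4 libraries against 4 allow. Their adjusted p over the 64 measures of this scale was 0.261, so neither passed. Those zones, taken on the left, on the right and on both sides, were the 6 measures of the 64 with an unadjusted p below 0.05.

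At TSS peaks the shoulders read 4.37, 4.82, 5.38 and 4.69 times the flank at ZT06 in the same order, and 3.78, 3.72, 4.53 and 4.09 at ZT18. Series 11 at ZT06 lay below series 25 at ZT18, the only crossing. The log2 difference was 0.26 (exact permutation p = 0.0571), with 0.29 within series 11 and 12 and 0.22 within series 25 and 26. Their distal zone differed by 0.13 (exact permutation p = 0.0571). The TSS centre differed by 0.07, higher at ZT06 in 3 of 4 series (exact permutation p = 0.486).

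Gene body peaks, the largest of the 3 classes, had the same order in their shoulders, with ZT06 above ZT18 in each series. The shoulders read 2.34, 2.55, 3.22 and 2.96 times the flank at ZT06 and 2.23, 2.12, 2.81 and 2.43 at ZT18. Series 11 moved least, by 0.07 on the log2 scale, and series 26 most, by 0.29. The mean log2 difference was 0.21 (exact permutation p = 0.171), with 0.18 in the linker zone, 0.15 in the next-nucleosome zone and 0.04 in the distal zone. The linker and next-nucleosome zones were higher at ZT06 in 4 of 4 series, the distal zone in 3 of 4. Within series 11 and 12 the shoulders differed by 0.17 and within series 25 and 26 by 0.24. With 1 library left out the shoulder value ran from 0.13 to 0.29, the linker value from 0.11 to 0.25, the next-nucleosome value from 0.10 to 0.20 and the distal value from 0.02 to 0.07. The lowest of each came without series 25 at ZT06. The centre split by pair of series: it was lower at ZT06 in series 11 and 12 (-0.10 and -0.09) and higher in series 25 and 26 (0.07 and 0.06).

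Intergenic peaks more than 10 kb from a gene read 2.73, 2.91, 3.40 and 3.20 times the flank in their shoulders at ZT06. At ZT18 they read 2.45, 2.40, 3.02 and 2.72. Among the ZT18 libraries, series 25 alone lay within the ZT06 range. The log2 difference was 0.21 (0.21 within series 11 and 12, 0.20 within series 25 and 26), the linker zone differed by 0.21 and the next-nucleosome zone by 0.18, each higher at ZT06 in 4 of 4 series. The centre was lower at ZT06 in 3 of 4 series, with a mean log2 difference of -0.02.

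**Figure D2:**
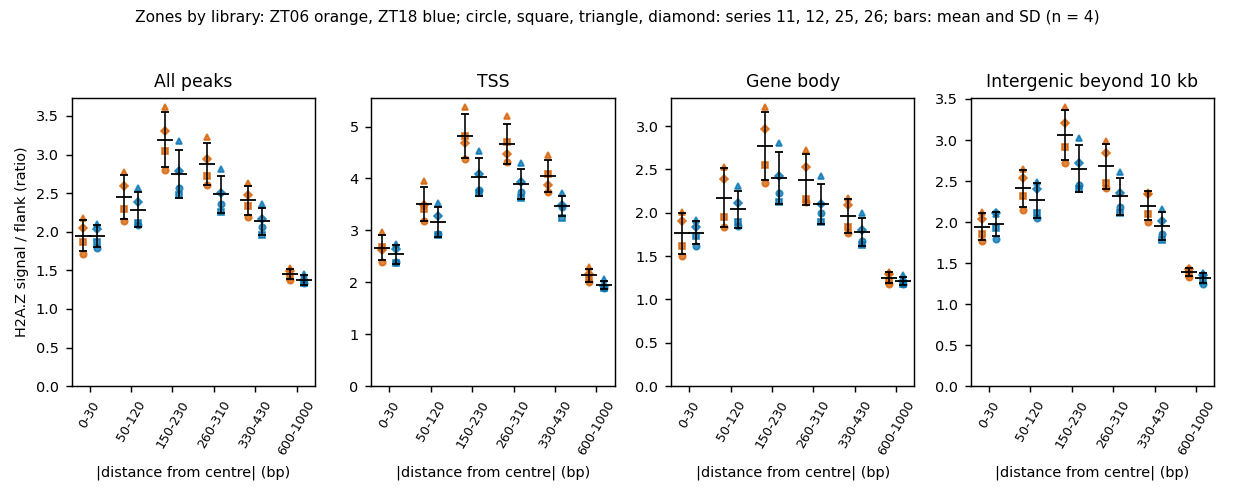
H2A.Z signal over the flank (vertical axis, ratio) in 6 zones by distance from the peak centre (horizontal axis, bp) for the 4 peak sets; each symbol is a library, and bars give the mean and SD of 4 libraries. In the zone nearest the centre the times overlap, and in the TSS panel the 260 to 310 bp and 330 to 430 bp zones show all ZT06 libraries above all ZT18 libraries.

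The depth of the dip relative to its shoulders differed between the times in each of the 4 sets. Centre fill, the centre above the flank divided by the shoulder above the flank, is 0 for a dip down to the flank and 1 for no dip. Over all peaks it was 0.394, 0.425, 0.450 and 0.452 at ZT06 in series 11, 12, 25 and 26, and 0.507, 0.593, 0.506 and 0.581 at ZT18. The groups did not overlap. The difference was -0.117 (SE 0.0268) over all peaks, -0.0731 (SE 0.0110) at TSS peaks, -0.135 (SE 0.0410) at gene body peaks and -0.139 (SE 0.0324) at intergenic peaks. Each had an exact permutation p of 0.0286, also when adjusted over 8 tests, and was lower at ZT06 in 4 of 4 series. With the series as a block, the exact sign permutation test over 4 series gave 0.125, the smallest it can give. That this measure is low at ZT06 and high at ZT18 was known from earlier work on these profiles, so it serves here as the base for locating the difference.

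Reading the extremes of each library's own curve, a measure chosen after the profiles had been seen, placed the difference in the same part of the profile. The height of the dip over the flank was 1.87 ± 0.193 (SD, n = 4) at ZT06 and 1.91 ± 0.129 (SD, n = 4) at ZT18 over all peaks, with ZT06 lower in series 11, 12 and 26 and higher in series 25. The left shoulder maximum was 3.27 ± 0.366 (SD, n = 4) and 2.81 ± 0.345 (SD, n = 4) times the flank, and the right one 3.26 and 2.79, each higher at ZT06 in 4 of 4 series. The shoulder maxima stood above the dip by 1.22, 1.35, 1.61 and 1.42 flank units at ZT06 and by 0.858, 0.661, 1.20 and 0.849 at ZT18. The groups were apart by a narrow margin, series 11 at ZT06 against series 25 at ZT18. The difference was 0.508 flank units (SE 0.140, exact permutation p = 0.0286, adjusted p = 0.245 over 60 such measures).

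The dip as a share of the mean shoulder maximum varied little among the ZT06 libraries. Over all peaks it lay between 0.563 and 0.580 in the 4 ZT06 libraries and between 0.629 and 0.736 in the 4 ZT18 libraries. At TSS peaks it was 0.510 ± 0.00661 (SD, n = 4) at ZT06 and 0.594 ± 0.0216 (SD, n = 4) at ZT18. At gene body peaks it was 0.596 and 0.714, and at intergenic peaks 0.591 and 0.716. The groups did not overlap in any of the 4 sets, and each had an exact permutation p of 0.0286 (adjusted p = 0.245). This share and the height of the shoulder maxima above the dip set the dip against its shoulders, as centre fill does. They restate a difference known beforehand and are no separate support for it.

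**Figure D3:**
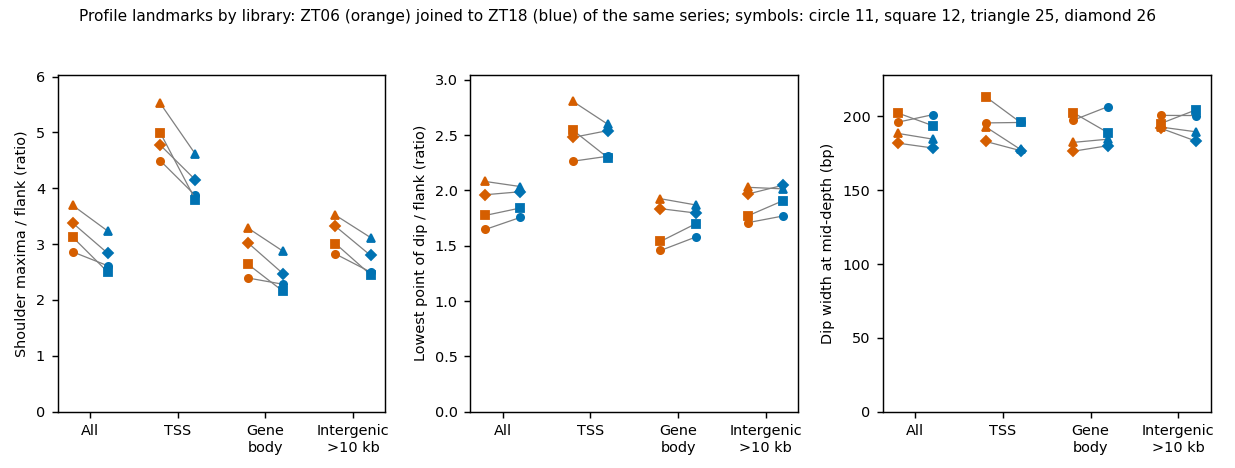
Shoulder maxima over the flank, lowest point of the dip over the flank (both vertical axes ratios) and width of the dip at mid-depth (bp) by peak set; ZT06 (orange) and ZT18 (blue) of a series are joined, with 1 symbol per library. Lines for the shoulder maxima fall from ZT06 to ZT18 in 4 of 4 series over all peaks, while those for the dip and its width run both ways.

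The positions of the shoulders showed no difference that passed a test. Over all peaks the shoulders were 398, 393, 382 and 377 bp apart at ZT06 in series 11, 12, 25 and 26, and 405.5, 375, 369 and 367 bp apart at ZT18. The difference was 8.37 bp (SE 10.2, exact permutation p = 0.4), less than the step between positions. Gene body shoulders lay 374 bp ± 13.1 (SD, n = 4) apart at ZT06 and 370.2 bp ± 17.9 (SD, n = 4) at ZT18, and intergenic shoulders 377 and 371 bp. TSS peaks had the widest spacing, 433 bp ± 33.2 (SD, n = 4) and 428 bp ± 60.2 (SD, n = 4), with series 12 at ZT18 far out at 514.5 bp. The right TSS maximum lay farther out at ZT06 in 4 of 4 series, at 221, 233, 197 and 188 bp against 192, 212, 188 and 172 bp at ZT18. That difference of 18.6 bp (SE 13.3) had an exact permutation p of 0.2 (adjusted p = 0.593) and an exact sign permutation p within series of 0.125, the smallest possible. The left TSS maximum had no common direction, farther out at ZT06 in 2 of 4 series. A shift smaller than these errors would not have been detectable.

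The width of the dip did not separate the times either. At mid-depth over all peaks it was 196, 202, 188.5 and 182 bp at ZT06 and 201, 194, 185 and 179 bp at ZT18, in the order of the series. The difference was 2.67 bp (SE 6.67, exact permutation p = 0.714). It was 9.72 bp at TSS peaks (SE 8.30, exact permutation p = 0.286), where ZT06 was wider in 3 of 4 series, and -0.423 bp at gene body peaks and 0.714 bp at intergenic peaks.

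The left and right sides differed within a profile. In the shoulder, linker, next-nucleosome and distal zones that difference was not seen to change between the times. The linker zone was higher on the left by 0.12 on the log2 scale at ZT06 and by 0.10 at ZT18 over all peaks. At intergenic peaks the next-nucleosome zone was higher on the left by 0.19 at ZT06 and 0.12 at ZT18. That difference of 0.07 (SE 0.03) had the same sign in 4 of 4 series, with an exact permutation p of 0.0857. It was 0.11 within series 11 and 12 and 0.02 within series 25 and 26. The intergenic shoulders went the other way, with the left below the right by -0.05 at ZT06 and -0.01 at ZT18 (exact permutation p = 0.0857). Of 16 asymmetry measures none passed, by the exact permutation test with the lowest adjusted p at 0.653, and 0 had an unadjusted p below 0.05. The flanks of the dip were not among these measures. There the log2 difference between the times, over the flank of the window, was larger on the right than on the left in every series of each set. Left and right means were 0.05 and 0.15 over all peaks, and 0.11 and 0.19 at TSS peaks. They were 0.03 and 0.14 at both gene body and intergenic peaks. That left-right change was not tested.

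Across the 1196 single positions of the 4 sets, the fit without the series called no position. limma on the log2 signal called 0 (0.0%) on the deposited scale, with 0 at an unadjusted p below 0.05. After division by the flank it also called 0 (0.0%), with 286 at an unadjusted p below 0.05, of which 143 were TSS positions, 75 intergenic, 67 in all peaks and 1 in gene bodies. On the deposited scale no position had all ZT06 libraries above all ZT18 libraries. Over the flank 70 did (5.85%), 55 at TSS peaks and 15 at intergenic peaks, and 1 (0.0836%) had them all below, at the very edge of the TSS window (1490 bp). The TSS positions without overlap lay between -560 and -270 bp, between 220 and 410 bp and between 880 and 1070 bp.

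With the series as a block, the same fit called broad stretches on both sides of the centre. The block compares each ZT06 library with the ZT18 library of its series, and same-numbered libraries deviated together in all 4 series (each was most like its own series in 2 of the 4 on the deposited scale and in 1 over the flank). limma with the block called 303 positions on the deposited scale (25.3%), all higher at ZT06. Over the flank it called 597 (49.9%), of which 596 were higher (49.8%) and 1 lower (0.0836%) at ZT06. Neighbouring positions share fragments, so these counts are stretches of profile and not independent sites.

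Those calls rest on limma's sharing of the spread across positions and, on the deposited scale, on single series. Without series 25 the blocked fit called 0 positions on the deposited scale, with 248 at an unadjusted p below 0.05, and without series 12 it called 26. Over the flank it called from 425 to 658 with 1 series left out. With the block and no sharing, 0 positions passed on either scale, with 131 (deposited) and 583 (flank) at an unadjusted p below 0.05. With the block and the spread taken from all 24 WT libraries 0 passed again, with 17 and 448 at an unadjusted p below 0.05.

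The blocked calls over the flank left the centre out. Counted over the 4 sets, 2 of 28 positions within 30 bp of the centre were called, against 44 of 64 on the slopes, 72 of 72 in the shoulders, 48 of 48 in the linker zone and 88 of 88 in the next-nucleosome zone. Between 440 and 590 bp 117 of 128 were called, and in the distal zone 175 of 328. The flank itself had 0 of 200, but the division holds its mean difference near 0, so that count locates nothing. Over all peaks the called stretches ran from -750 to -110 bp and from 50 to 950 bp. At TSS peaks they ran from -810 to -60 bp and from 20 to 1050 bp. Gene body peaks had the shortest, from -500 to -110 bp and from 60 to 570 bp, with another from -1000 to -940 bp. At intergenic peaks they ran from -740 to -110 bp, from 50 to 720 bp and from 850 to 1000 bp.

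On the deposited scale the blocked stretches were shorter and lay within those called over the flank. They ran from -460 to -140 bp and from 90 to 380 bp over all peaks, from -370 to -150 bp and from 100 to 300 bp at gene body peaks, and from -490 to -170 bp and from 100 to 310 bp at intergenic peaks. At TSS peaks they ran from -780 to -110 bp and from 50 to 530 bp, followed by 2 short stretches out to 940 bp. How many positions count as higher or lower, and whether the centre reads level, depends on the divisor. Divided by the mean of its own window instead, with the series block, limma called 199 positions higher at ZT06 (16.6%) and 411 lower (34.4%). That window mean itself read 1.73 ± 0.113 times the flank at ZT06 and 1.60 ± 0.0954 at ZT18 over all peaks (SD, n = 4). On the deposited scale its log2 difference was 0.12, beside 0.01 for the centre and 0.23 for the shoulders. Relative to the window mean the centre therefore read lower at ZT06 and the shoulders higher.

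**Figure D4:**
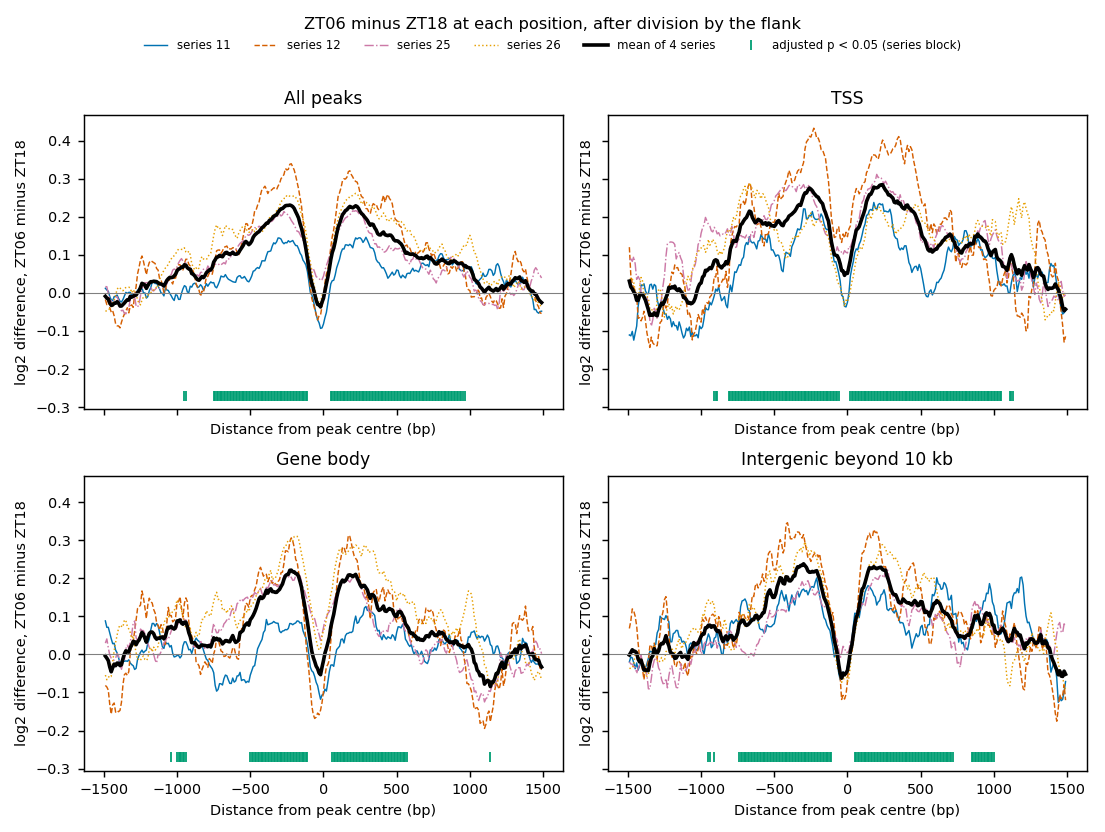
Log2 difference, ZT06 minus ZT18, of the signal over the flank (vertical axis) against distance from the peak centre (horizontal axis, bp) in the 4 peak sets; thin lines are the 4 series, the thick line their mean, and green ticks mark positions with an adjusted p below 0.05 in limma with the series block. In all 4 panels the mean line rises on both sides of the centre and dips between, and in 3 panels it dips below 0 there (-0.01 at the centre over all peaks, 0.05 at TSS peaks).

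The largest single differences sat on the outer slope of the shoulders, except at intergenic peaks, where the largest lay in the linker zone. Over all peaks this was the position at -230 bp, with 2.85, 3.09, 3.68 and 3.37 times the flank at ZT06 in series 11, 12, 25 and 26 and 2.60, 2.44, 3.21 and 2.82 at ZT18. Its log2 difference was 0.23, with an adjusted p of 0.205 in limma without the block and 0.000143 (SE 0.0337) with it. At TSS peaks it was the position at 240 bp, where the libraries read 4.51, 5.004, 5.49 and 4.70 at ZT06 and 3.84, 3.79, 4.48 and 4.06 at ZT18, the groups just apart. Its log2 difference of 0.28 had an adjusted p of 0.146 in limma without the block and 0.000121 with it. At gene body peaks the largest difference was 0.22, at -220 bp, and at intergenic peaks 0.24, at -300 bp.

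The positions with the lowest difference lay in the dip in 2 sets and far out in the others. They were at -20 bp over all peaks (-0.04) and at -40 bp at intergenic peaks (-0.06), with adjusted p values of 0.326 and 0.0956 in limma with the block. At TSS peaks the lowest value was -0.06 at -1300 bp, inside the flank. The position called lower at gene body peaks was at 1140 bp, with a log2 difference of -0.08 (adjusted p = 0.0487 in limma with the block, 0.286 without). There series 11 read 1.00 at ZT06 and 0.982 at ZT18, and series 12, 25 and 26 were lower at ZT06.

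The peak sets were then compared with each other in the size of the difference. Of 27 contrasts between TSS, gene body and intergenic peaks none passed, by the exact permutation test with the lowest adjusted p at 0.386. Of the 27, 2 had an unadjusted exact permutation p of 0.0286, the smallest possible. In the distal zone the difference over the flank was 0.13 at TSS peaks and 0.04 at gene body peaks, a contrast of 0.09 (SE 0.01) with the same sign in 4 of 4 series. Centre fill differed by -0.0731 at TSS peaks and by -0.139 at intergenic peaks, a contrast of 0.0660 (SE 0.0271), also in 4 of 4 series. Gene body and intergenic peaks had nearly equal shoulder differences, with a contrast of 0.00 (SE 0.04).

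Other pairs of times 12 h apart were set beside ZT06 and ZT18. The shoulders over all peaks differed by 0.32 between ZT10 and ZT22, with an SD of 0.33 over the series, and by 0.08 (SD 0.09) between ZT02 and ZT14. The ZT06 minus ZT18 difference of 0.22 had an SD of 0.08 and so was smaller than the former, with less scatter. At TSS peaks ZT02 minus ZT14 was -0.02 in the shoulders and -0.05 in the linker zone, against 0.26 and 0.26 for ZT06 minus ZT18. The contrasts of 0.28 and 0.31 had the same sign in 4 of 4 series, each with an exact sign permutation p of 0.125, the smallest that 4 series allow. ZT10 minus ZT22 at TSS peaks was 0.27 in both zones, and ZT02 minus ZT14 in the gene body shoulders was 0.12. Centre fill over all peaks was also lower at ZT02 than at ZT14, by -0.071, in 4 of 4 series. Between ZT10 and ZT22 it differed by -0.063 and was higher at ZT10 in 1 of 4 series, beside -0.117 for ZT06 minus ZT18. None of the 48 contrasts between pairs of times passed, by the exact sign permutation test with the lowest adjusted p at 0.72. With a smallest possible p of 0.125 in that test none could have passed, so this does not show that the pairs are alike.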

How the data were processed

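Per the labels' protocols, H2A.Z nucleosomes from nuclease-digested liver nuclei were sequenced as mononucleosome fragments. The submitters' processing notes name CASAVA 1.7, Bowtie (version not given) and the mm9 build. The deposited table holds signal (coverage) averaged by the authors over sets of peaks. Not given in the sources used here are its normalization, the peak caller and the read depth, and without depth no counting error could be computed. The step of 10 bp was taken from the 3 kb window and the number of positions.

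Positions were compared with limma 3.58.1 (R 4.3.3) on log2 signal, with no pseudocount and Benjamini-Hochberg adjustment over 1196 positions. Zones, centre fill, asymmetry and contrasts between sets were compared by exact two-sided permutation (70 assignments of 4 and 4) in Python 3.11.15. A call means an adjusted p below 0.05. The scripts were tested on simulated data. Positions named are the largest difference each way, the centre, the maxima, and every stretch of at least 5 called positions. The members and zones were chosen with earlier results of these data known. Landmarks, the unshared spread, the 24-library spread, the source-name block and the blocked fits with another divisor or without a series were added after seeing the data.

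The labels do not say that libraries came from separate animals, so the spread behind each p-value may be technical. They do not say what a series number marks. Deviations of same-numbered libraries from their group means correlated at 0.721, 0.444, 0.847 and 0.471 in series 11, 12, 25 and 26 (0.637, 0.375, 0.828 and 0.33 over the flank), each above 0.1, and by that rule the numbers were taken to pair the libraries. Libraries correlated best with their own series in 2 of 4 series (1 of 4 over the flank). Alternatives were other flanks, a pseudocount of 1, the series or source-name set as a block, each library left out and each pair of series alone. Peaks were not assigned to genes and no DNA sequence is shown, because no mm9 genome was used here. Intergenic peaks within 10 kb of a gene were not analysed here.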

Additional observations from a re-analysis of the deposited data

Results flagged for a closer look

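In the distal zone (600 to 1000 bp) of TSS peaks, the ZT18 library of series 25 read 1.049 on the log2 scale over the flank, far from the other 3 ZT18 libraries at 0.924 to 0.943. In the left-over-right ratio of the distal zone over all peaks, the ZT18 library of series 11 read 0.0241 on the log2 scale, against 0.0139 to 0.0155 in the others. Both are single libraries far from the rest of their group. Among 96 groups of 4 examined in this way 2 stood out, where chance gives about 1 in 20, or 4.8.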

How the results depend on the processing

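The replicate block (same-numbered series paired) moved the number of called positions from 0 to 303 on the deposited scale and from 0 to 597 over the flank. The source-name set as a block gave 216 and 545, series 11 and 12 alone 29 and 290, and series 25 and 26 alone 0 and 0. The blocked counts fell to 0 and 0 without sharing of the spread and to 0 and 0 with the spread of all 24 WT libraries. Without 1 series they ran from 0 to 401 (deposited) and from 425 to 658 (flank), with 26 without series 12 and 0 without series 25 on the deposited scale. The cause was not tested. Centre fill kept its sign in 16 of 16 alternatives in each set. Because the groups did not overlap, leaving out a library or taking a pair of series alone could not have changed that sign. The block changes only the test and leaves the differences in centre fill as they were. These were -0.117 (all peaks), -0.0731 (TSS), -0.135 (gene body) and -0.139 (intergenic), at an exact sign permutation p of 0.125. Series 11 and 12 alone gave -0.1405, -0.0786, -0.184 and -0.156, and series 25 and 26 alone -0.0930, -0.0675, -0.0850 and -0.122, at an exact permutation p of 0.333, the smallest for 2 against 2. With 1 library left out they ran from -0.130 to -0.1015, -0.0782 to -0.0657, -0.1545 to -0.1055 and -0.158 to -0.118. Without series 11 or 12 at ZT06 the adjusted exact permutation p rose to 0.0571, or to 0.0857 for gene body peaks without series 11. The shoulder difference over the flank stayed positive in 15 of 15 alternatives in each set, and the centre changed sign with 1 library left out in all sets but TSS. The shoulder difference was positive in each series, so the block and a pair of series alone could not have changed its sign. No alternative gave a called zone, asymmetry or contrast between sets. Unknown depth limits every level.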

Other observations

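BM livers, which lack BMAL1, had profiles from 1 library at each time (series 5; series 8 was not analysed here), so their values carry no test. The BM shoulders over all peaks read 2.18 times the flank at ZT06 and 2.49 at ZT18, the opposite order to the WT means of 3.19 and 2.75. The BM centre read 1.57 at ZT06 and 1.85 at ZT18, where the WT means were both 1.95. The WT means differed in the shoulders with the centre level, and in this BM pair both zones read lower at ZT06. Single BM libraries varied more widely over the other times of day than within this pair. On the log2 scale over the flank, the BM shoulders were 1.125 at ZT06 and 1.314 at ZT18, but 1.43 at ZT02 and 0.637 at ZT22. The BM centre was 0.651 and 0.885, against 0.970 at ZT02 and 0.4525 at ZT22. Whether the order in this BM pair goes with the genotype was not tested.

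By peak set, the BM shoulders at ZT06 and ZT18 read 3.70 and 3.79 times the flank at TSS peaks, 1.73 and 2.07 at gene body peaks and 2.02 and 2.43 at intergenic peaks. In each set the BM library at ZT06 lay below all 4 WT libraries at that time. BM centre fill over all peaks was 0.483 at ZT06 and 0.57 at ZT18, beside WT means of 0.430 and 0.547. At TSS peaks it was 0.437 and 0.489 (WT means 0.435 and 0.5085), at gene body peaks 0.481 and 0.661 (0.424 and 0.559) and at intergenic peaks 0.550 and 0.587 (0.458 and 0.597). BM lay below the WT mean at ZT18 in the TSS and intergenic sets and above it in the others.

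Over the 6 times of day in WT, the mean shoulder over all peaks on the log2 scale over the flank was 1.62 at ZT02, 1.67 at ZT06, 1.56 at ZT10, 1.54 at ZT14, 1.45 at ZT18 and 1.24 at ZT22. ZT06 had the highest mean and ZT22, not ZT18, the lowest, and the SD over 4 libraries at ZT22 was 0.28. Centre fill had its lowest mean at ZT06, 0.430, beside 0.431 at ZT10, and its highest at ZT18, 0.547, beside 0.535 at ZT14. These neighbours differ by less than the SD of 0.0267 at ZT06 and 0.0464 at ZT18. At TSS peaks the lowest mean was at ZT10, 0.427, and the highest at ZT14, 0.5145, beside 0.435 at ZT06 and 0.5085 at ZT18.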
